A study of Rattus norvegicus with 3 samples.

Results

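The genes described are those of neuropeptide and hormone maturation: the prohormone convertases Pcsk1, Pcsk2 and Furin, the convertase inhibitor Pcsk1n, the carboxypeptidases Cpe and Cpd, the amidating enzyme Pam and the glutaminyl cyclase Qpct. Members were all probe sets whose platform annotation names 1 of these 8 genes and no other. This gave 10 probe sets for 7 genes, out of 31042 gene probe sets on the array, of which 20826 carried a single symbol and covered 14217 genes. None carried Pcsk1 alone in the tables used, so Pcsk1 was not analysed here. Cpd had 2 probe sets, Pam had 3 and the other genes had 1 each.

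RNA from rats, labelled as adrenal medulla after the words Multiple Organs, whose meaning the labels do not give, was hybridised to 1-colour oligonucleotide arrays after 7 days of cold (1 array) or 1 day of cold (2 arrays, a and b). The labels give no strain, sex, age or temperature, and leave unsaid whether arrays a and b are separate animals or repeats, so the p-values below may measure technical spread only. No array from rats outside the cold was analysed here, and the open question is how a longer stay compares with a shorter one. Fewer cells of a type and less RNA per cell cannot be told apart in such whole-tissue samples.

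Peptide hormones are made as long precursors that pass through the Golgi apparatus into secretory granules. Convertases cut the precursor after basic residues, carboxypeptidases trim the exposed lysines and arginines, and Pam turns a terminal glycine into an amide, while glutaminyl cyclase closes an amino-terminal glutamine into a ring. Chromaffin cells of the adrenal medulla keep this machinery in the granules that also store catecholamines, and secrete enkephalins, neuropeptide Y and chromogranin peptides together with adrenaline.

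The tissue label was set against marker genes. All 9 chromaffin markers passed the intensity filter described below, and their summed intensity was 1175056 on the 7-day array, against 2373356 and 1009198 on 1-day arrays a and b. They did not move as a group: 5 read higher and 4 lower on the 7-day array than on array b (median log2 difference 0.20), and likewise 5 and 4 relative to array a (0.26). Of 8 adrenal cortex markers 6 had a probe set and 6 of these passed too, and their summed intensity was 941988 on the 7-day array, against 1432421 and 717602 on arrays a and b. None of 4 pituitary hormone genes passed the filter, which uses the mean of the arrays. On array a alone, Pomc (1069) and Prl (835) read above the filter intensity of 759, but both lay below the median of that array, 1583. Pomc read 50 on the 7-day array and 133 on array b, and Prl 301 and 234. Array a stood apart from the others: the Spearman correlation across gene probe sets was 0.939 for the 7-day array with array b, 0.684 for the 7-day array with array a and 0.664 for the 1-day pair. For beta-actin, the signal at the 3′ end over that at the 5′ end was 8.87 on the 7-day array, against 231 (1-day array a) and 6.11 (1-day array b). For GAPDH the gap was smaller, with 1.87 on the 7-day array, against 5.02 (1-day array a) and 1.79 (1-day array b). The lower quartile of intensity was 233 on the 7-day array, 557 on array a and 161 on array b, so low signals were raised on array a. The part of RNA quality in the differences below was not tested.

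All differences are on the log2(intensity + 16) scale, 7 days minus 1 day unless stated, and levels of different probe sets are not compared. For 15521 probe sets with a mean log2 value of at least 9.60, the filter used for testing, limma compared the 7-day array with the mean of the 1-day arrays. At least 1 probe set of each of the 7 genes passed, 7 in all, while 1 of Cpd and 2 of Pam did not. These 3 are called dim below, and the Cpd and Pam probe sets that passed are called bright. Limma called 0 of the 7 member probe sets at an adjusted p under 0.05, against a background of 0.0% (0 of 15521, with 70 at an unadjusted p under 0.05). The adjusted p was 1.00 for each, and also for the 3 dim probe sets in a fit without the filter. The SE from limma, 0.91 to 1.41 for the 7, follows the spread fitted at that intensity and not the spread of each probe set.

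Most processing enzymes read nearly alike on the 7-day array and 1-day array b. The differences of Pcsk1n, Cpe, Furin, the bright Cpd probe set and the bright Pam probe set lay between -0.19 and 0.09. The quartiles over the 15521 kept probe sets were -0.20 and 0.21, so this closeness is not particular to the members. Relative to array a the same probe sets ran from -0.32 (Cpe) to 2.10 (Pam). Qpct read lowest relative to array b, at -1.01, followed by Pcsk2 at -0.43. Over the 10 probe sets the median difference from array b was -0.02, beside 0.08 over all 31042 gene probe sets, and from array a it was 0.17, beside -0.71. Over the 7 that passed the filter these medians were -0.13 and 0.62, beside 0.00 and -0.10 over the 15521 kept, and nothing is read from them since the filter chose the 7.

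The 7-day array read below both 1-day arrays for Furin and Qpct, which is 2 of 10 probe sets beside 27.6% of all gene probe sets. It read above both for Pcsk1n and 1 dim Pam probe set, also 2 of 10, beside 18.8%. The remaining 6 lay between the 1-day arrays. For 7 of the 10 the 7-day array was closer to array b than the 1-day arrays were to each other, beside 83.4% of all gene probe sets. By size, 1 member probe set (Qpct) read lower than on array b by 2-fold or more, beside 6.64%, and 1 (a dim Pam probe set) higher by 2-fold or more, beside 14.9%. The 1-day arrays themselves differed at least 2-fold on 5 of 10, beside 62.0%. With 1 or 2 probe sets in most of these counts, none is read as particular to the members.

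**Figure D1:**
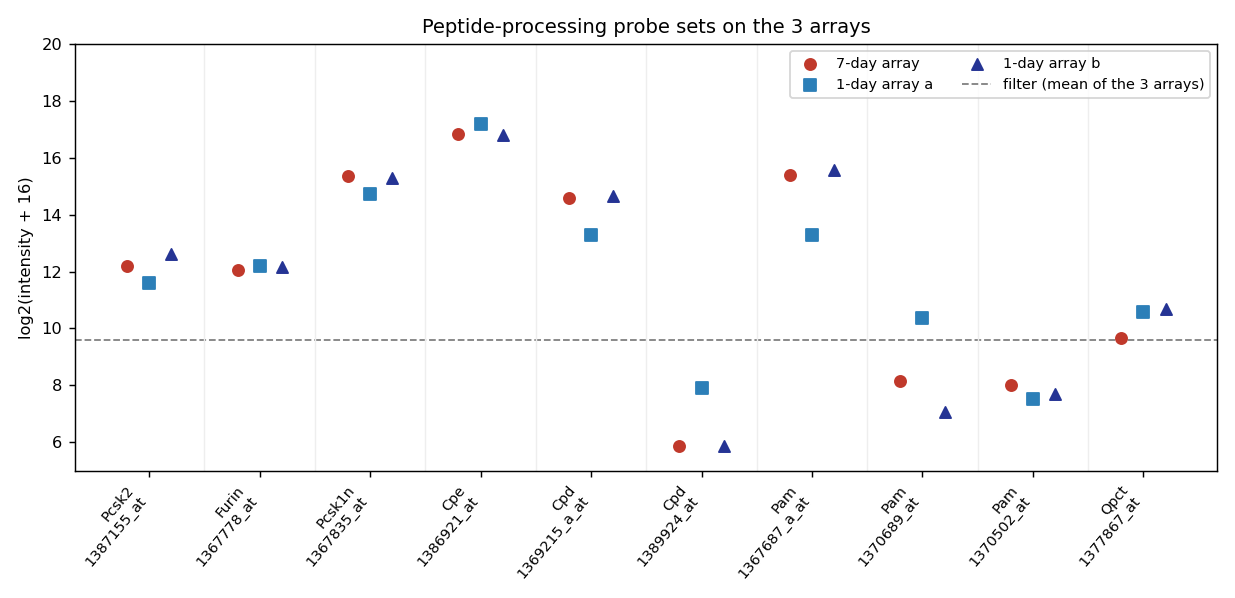
Each column is 1 probe set, named with its gene, and the vertical axis is log2(intensity + 16). Red circles are the 7-day array, light squares 1-day array a and dark triangles 1-day array b, and the dashed line at 9.60 is the filter on the mean of the arrays. Furin lies within -0.16 and -0.13 of the 1-day arrays, the bright Pam probe set is lowest on array a, and Qpct is lowest on the 7-day array.

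Pcsk2 encodes the convertase that works in mature, acidic granules and finishes the enkephalins and many other peptides. Its probe set (1387155_at) read 4702 on the 7-day array, against 3050 on 1-day array a and 6326 on 1-day array b. The 7-day value lay between the 1-day values, which were 2.07-fold apart. Relative to array b the difference was -0.43, and it stayed between -0.61 and -0.34 under other scalings of the arrays. Against array a it was 0.62, and against the mean of both 0.10 ± 0.91 (SE from limma, adjusted p = 1.00). Scg5, whose product escorts the Pcsk2 proenzyme through the secretory pathway and helps to activate it, showed the same order, with 47358 on the 7-day array, against 32119 and 56170 on arrays a and b. That order, with array b highest and array a lowest, was found in 26.5% of the 9292 genes kept, and in the Cpd and Pam probe sets that passed the filter.

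Of the 7 genes, 5 matched RefSeq promoter entries (Pcsk2, Pcsk1n, Cpe, Pam and Qpct, build GRCr8). The 250 bases before the annotated start are printed here for 3 of them, because Pcsk2 and Qpct read lowest relative to array b among the probe sets that passed the filter and Cpe, another granule enzyme, read nearly the same. Each runs 5′ to 3′ in the direction of the gene. Capitals mark the letters TGACG, the core of the cAMP response element through which stimulated chromaffin cells switch on many genes, or their reverse complement CGTCA. A search of both strands, with overlaps allowed, found these letters once each in Pcsk2, Cpe and Pam and not in Pcsk1n or Qpct, and in 18.2% of 33469 RefSeq promoter windows of the same length. The Pcsk2 match begins 57 bases before the start and the Cpe match 173 bases before it. The GC box letters GGGCGG occurred 7 times before Pcsk2, once each before Cpe and Pcsk1n, and in 30.5% of all windows. TATAAA was found before none of the 5 genes (12.9% of windows), and CCAAT only before Pcsk2, at 2 places (34.0% of windows). The Pcsk2 window is 79.6% G and C, against 63.2% for Cpe and 62.0% for Qpct. A match is a description of letters, not a binding site.
Pcsk2 (chr3:151333688-151333937, plus strand): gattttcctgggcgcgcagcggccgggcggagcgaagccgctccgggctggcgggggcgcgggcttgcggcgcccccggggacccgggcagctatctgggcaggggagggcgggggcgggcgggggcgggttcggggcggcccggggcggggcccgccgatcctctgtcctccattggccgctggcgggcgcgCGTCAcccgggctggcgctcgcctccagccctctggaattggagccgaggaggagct
Cpe (chr16:29796457-29796706, plus strand): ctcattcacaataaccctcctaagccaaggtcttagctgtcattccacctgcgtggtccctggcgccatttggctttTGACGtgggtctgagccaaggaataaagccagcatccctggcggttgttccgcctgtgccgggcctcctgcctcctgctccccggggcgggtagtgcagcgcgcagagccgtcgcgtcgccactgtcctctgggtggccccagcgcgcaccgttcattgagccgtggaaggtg
Qpct (chr6:21748896-21749145, minus strand): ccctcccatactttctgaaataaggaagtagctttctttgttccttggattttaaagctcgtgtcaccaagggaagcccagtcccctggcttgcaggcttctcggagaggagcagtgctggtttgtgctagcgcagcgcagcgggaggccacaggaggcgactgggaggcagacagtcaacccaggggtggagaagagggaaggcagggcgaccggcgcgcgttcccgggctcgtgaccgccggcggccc

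Furin encodes the convertase of the trans-Golgi network, present in nearly all cells, which cleaves growth factors, receptors and some prohormones outside the granule. Its probe set (1367778_at) read 4187 on the 7-day array, against 4687 and 4589 on 1-day arrays a and b. These were the closest values among the members: the 1-day arrays differed by 0.03, and the 7-day array stood at -0.16 relative to array a and -0.13 relative to array b. The ratio of the 7-day array to array b was 0.912. Limma gave -0.15 ± 0.91 (adjusted p = 1.00). Against array b Furin stayed lower under the other scalings (-0.31 to -0.07), and against array a it turned to 1.05 when each array was centred on its median. That centring raised the difference from array a for all probe sets, with a median over those kept of 1.12 in place of -0.10, and lowered that from array b to -0.18 in place of 0.00.

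Pcsk1n encodes proSAAS, a granule protein that can inhibit the Pcsk1 enzyme and is itself cut into neuropeptides. It read 42182 on the 7-day array, against 26763 and 39636 on 1-day arrays a and b (1367835_at). The 7-day array was the highest, by 0.66 over array a and by 0.09 over array b. The step over array b was small against the gap between the 1-day arrays, -0.57 for array a minus array b, and turned to -0.09 with median centring, while 0.05 was found after quantile normalisation and again after removal of the intensity trend. Limma gave 0.37 ± 1.03 (adjusted p = 1.00).

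Cpe encodes carboxypeptidase E, the main enzyme that strips basic residues from peptide ends in granules. Its probe set (1386921_at) read 118168 on the 7-day array, against 147575 on 1-day array a and 114294 on 1-day array b. The 7-day array lay between the others, with differences of 0.05 from array b and -0.32 from array a. The direction relative to array b was not stable: it was -0.24 with quantile normalisation, -0.13 with median centring and -0.04 with the intensity trend removed. Cpe was the only bright member that read higher on array a than on array b by more than 0.1, at 0.37. Limma gave -0.14 ± 1.12 (adjusted p = 1.00). The genes of most similar pattern over the 3 arrays were Snrnp40, Plekha4 and Timp3, at distances of 0.0046 to 0.0071 (Euclidean, over array a minus array b and 7 days minus array b). As many as 143 of 9291 genes lay within 0.1, so many other genes shared this pattern.

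Cpd encodes carboxypeptidase D, a relative of carboxypeptidase E that trims peptides in the trans-Golgi network of many cell types, where Furin also works. The bright probe set (1369215_a_at) read 24563 on the 7-day array, against 10085 and 25511 on 1-day arrays a and b. The 7-day array and array b were close, and array a minus array b was -1.34. The difference from array b was -0.05, and from array a it was 1.28, for a limma value of 0.61 ± 0.99 (adjusted p = 1.00). The second Cpd probe set (1389924_at) was dim, with 42.3 on the 7-day array, against 223 and 41.9 on arrays a and b. Its high value on array a ran opposite to that of the bright probe set, at a level below the lower quartile of every array.

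Pam encodes peptidylglycine alpha-amidating monooxygenase, which needs copper and ascorbate and gives neuropeptide Y, substance P, vasoactive intestinal peptide and calcitonin gene-related peptide their amide ends. The bright probe set (1367687_a_at) read 42628 on the 7-day array, against 9935 on 1-day array a and 48705 on 1-day array b. Array a was the low one, and the 1-day arrays were 4.90-fold apart. The 7-day array stood at -0.19 relative to array b, a direction held under the other scalings (-0.37 to -0.24), and at 2.10 relative to array a. Limma gave 0.95 ± 1.02 (adjusted p = 1.00), and this value above 0 rests on array a.

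The other Pam probe sets gave another picture at low signal. The first (1370689_at) read 266 on the 7-day array, against 1314 and 117 on 1-day arrays a and b, and the second (1370502_at) read 242, against 166 and 189. The first stood at 1.09 relative to array b and at -2.24 relative to array a. The second was 0.51 above array a and 0.33 above array b, and the difference from array b turned to -0.18 with quantile normalisation and to -0.11 without the intensity trend. The 3 Pam probe sets thus disagreed, and those 2 did not pass the filter.

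Qpct encodes glutaminyl cyclase, which closes the first residue of neurotensin and of several hormones and chemokines and so protects them from aminopeptidases. Its probe set (1377867_at) read 801 on the 7-day array, against 1511 on 1-day array a and 1632 on 1-day array b. The 1-day arrays were close (array a minus array b was -0.11), and the 7-day array was below both, at 0.491 of array b and 0.530 of array a. The differences were -1.01 from array b and -0.90 from array a. Among the 15521 kept probe sets 0.5% lay lower relative to array b, while among all 31042 gene probe sets 6.5% did. Of those kept, 82 (0.53%), Qpct included, lay at least as far below both 1-day arrays. Qpct was singled out here after its values were seen. Limma gave -0.96 ± 1.41 (adjusted p = 1.00); that SE is the spread fitted at this intensity, not the spread of the 1-day values of Qpct.

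Against array b, Qpct stayed lower under the other scalings, by -1.19 to -0.78. Against array a the direction depended on the scaling: it was -0.23 with the intensity trend removed, 0.29 with quantile normalisation and 0.31 with median centring. Its mean log2 value passed the filter, but the 7-day value (9.67) was barely above the filter line. Qpctl, the Golgi-resident relative of Qpct, read 2067 on the 7-day array, against 3046 and 1707 on arrays a and b. Its 7-day value lay between the 1-day values, 0.27 above array b.

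**Figure D2:**
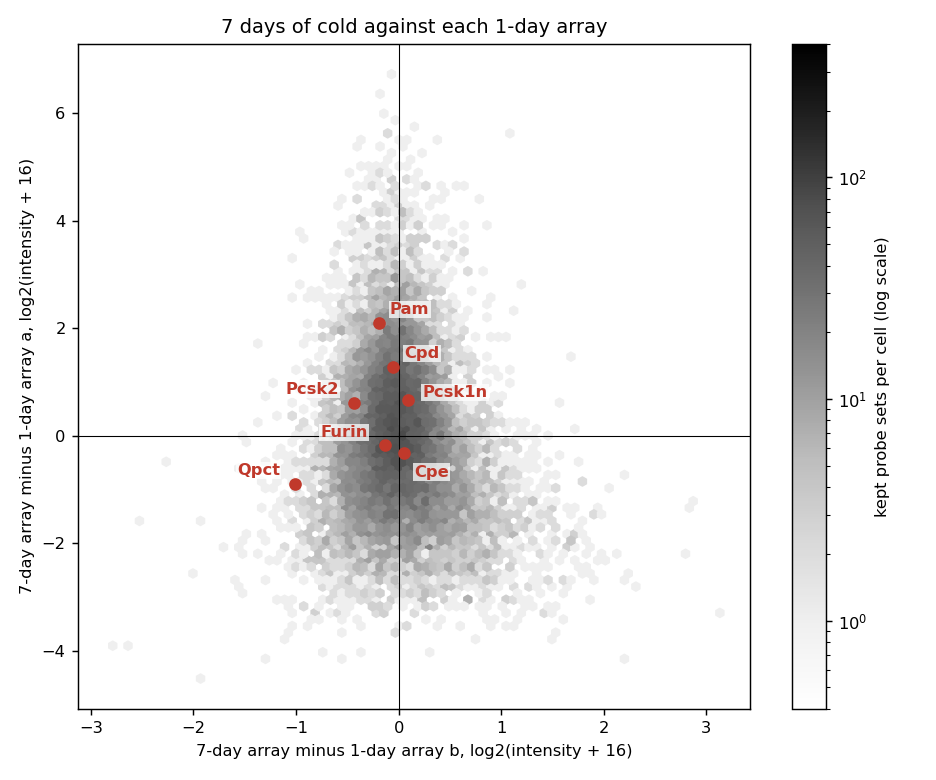
The horizontal axis is the 7-day array minus 1-day array b and the vertical axis the 7-day array minus 1-day array a, both on the log2(intensity + 16) scale. Grey cells count the 15521 kept probe sets and red points are the 7 kept member probe sets. Qpct (-1.01 and -0.90) lies at the lower left edge, Pam (2.10) and Cpd (1.28) lie high on the vertical axis only, and the vertical spread of all probe sets exceeds the horizontal one.

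**Figure D3:**
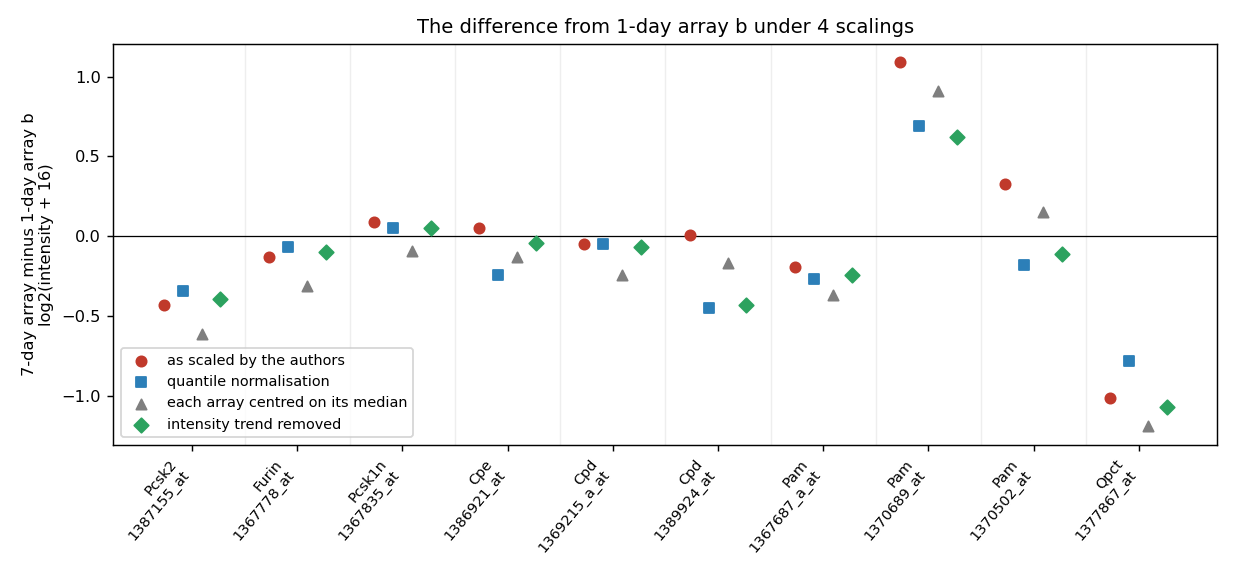
The 7-day array minus 1-day array b is given for each member probe set, on the log2(intensity + 16) scale, with the authors' scaling and with 3 other scalings. Qpct and Pcsk2 stay below 0 throughout, as do Furin, the bright Cpd and the bright Pam probe sets, while Pcsk1n, Cpe and 2 dim probe sets cross 0.

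Other genes of the pathway were counted with 1 kept probe set per gene, the brightest. Over the 9292 genes kept, 51.4% read lower on the 7-day array than on array b, and the median difference was -0.01. None of the list members named below passed in limma, and the lists share the same 3 arrays with the members.

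Of 6 other proprotein convertases, 5 passed the filter, and 4 of those 5 read lower than on array b, with a median of -0.30 (0.02 against array a). Pcsk5 and Pcsk6, convertases of the secretory pathway with substrates among growth factors, stood at -0.51 and -0.47. Pcsk4, known from germ cells, stood at 0.38, and Mbtps1, the site-1 protease of the Golgi, at -0.01 (0.03 with quantile normalisation and 0.01 without the intensity trend). Relative to array a the same 4 genes were spread from -1.12 (Pcsk4) to 2.88 (Mbtps1), with 0.48 for Pcsk5 and 0.02 for Pcsk6. Of 8 other metallocarboxypeptidase genes only 3 passed the filter. Relative to array b, Aebp1 stood at -0.38, Cpa4 at -0.33 and Cpq at 0.10 (-0.08 with median centring). Relative to array a they stood at 4.02, -1.31 and 1.34.

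Partners and alternative enzymes of processing were closer to 0. Of 10 genes 9 passed, 6 read lower than on array b and 3 higher, and the median was -0.01 (0.25 against array a). The lowest were Scg5 (-0.25) and Serpini1, which encodes a neuronal serine protease inhibitor (-0.22), and the highest were Qpctl (0.27) and the lysosomal protease gene Ctsb (0.21). Relative to array a these stood at 0.56, 0.25, -0.56 and 0.15. The genes that serve Pam, named for that role and not for their rank, were near array b. Cyb561, whose product passes electrons into the granule to restore ascorbate, read 93765 on the 7-day array, against 59991 and 94508 on arrays a and b. The copper importer gene Slc31a1 stood at -0.01 and the copper pump gene Atp7a at -0.14 relative to array b.

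Peptide-cleaving enzymes, several of which act on released peptides outside the cell, also went both ways. Of 12 genes 9 passed, with 6 lower and 3 higher than on array b and a median of -0.04 (0.12 against array a). Mme, the gene of neprilysin, which degrades enkephalins, read 5300 on the 7-day array, against 3042 and 7267 on arrays a and b (-0.45 from array b), and Enpep, an aminopeptidase that trims angiotensin, stood at -0.39. Dpp4, which removes amino-terminal dipeptides, stood at 0.66, and Anpep, another aminopeptidase, at 0.37. Relative to array a, Mme stood at 0.80, Enpep at -1.68, Dpp4 at -0.58 and Anpep at 1.46.

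The precursors on which the members act were lower more often than higher relative to array b. Of 18 precursor genes 15 passed, with 11 lower and 4 higher and a median of -0.24, while against array a 5 were lower and 10 higher, with a median of 0.34. Calca, the precursor gene of calcitonin gene-related peptide, and Penk, of the enkephalins, stood at -0.81 and -0.62 relative to array b. Pdyn, of the dynorphins, read 8974 on the 7-day array, against 7082 and 5786 on arrays a and b (0.63 from array b). The granin gene Chga stood at 0.35 from array b. Relative to array a, Calca stood at -0.38 and Pdyn at 0.34, while Penk (1.00) and Chga (-1.65) turned round. Adrenal cortex markers read higher than on array b in 6 of 6 kept genes, by 0.34 to 0.57, but relative to array a 3 were higher and 3 lower (median -0.17). Relative to array b, 2 of 2 Schwann and sustentacular and 3 of 3 endothelial markers were higher (medians 0.30 and 0.09), and 3 of 4 white blood cell markers lower (median -0.34). The medians of these lists relative to array a were 0.16, 0.10 and -0.30. Several steps from array b were small. Kdr (0.04), Tek (0.09) and Sox10 (0.15) turned to -0.14, -0.09 and -0.04 with median centring. Of the white blood cell markers, Itgb2 stood at -1.13, Cd163 at -0.63, Cd68 at -0.04 and Ptprc, which read higher, at 1.15. Relative to array a they stood at -1.71, 0.15, 2.49 and -0.75. The part of these cell types in the other results was not tested. The members' own values, beside these lists, ran from -1.01 (Qpct) to 0.09 (Pcsk1n).

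**Figure D4:**
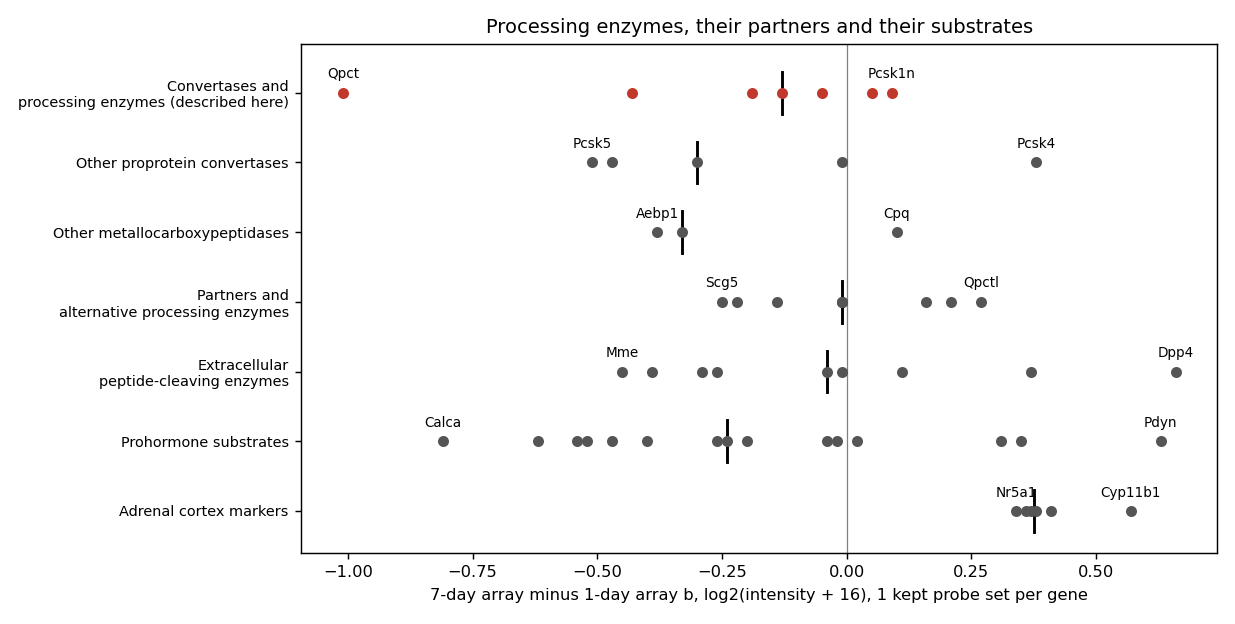
Each point is 1 gene by its brightest kept probe set, the horizontal axis is the 7-day array minus 1-day array b on the log2(intensity + 16) scale, and black bars are list medians. Red points in the top row are the 7 members, the rows under them other genes of peptide processing and their precursors, and the lowest row adrenal cortex markers. Qpct (-1.01) lies lower than every gene of the other rows, and all cortex markers lie above 0.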

How the data were processed

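Per the deposited table, each probe set has a single linear intensity on each array, already summarised by the authors. The 2% trimmed mean was 2501 on every array, which points to scaling to a common value, and the software is not given in the sources used here. Intensities were kept so and transformed to log2(intensity + 16), which damps differences at low signal. Control probe sets (57) were dropped. Of 31042 gene probe sets, 20826 had 1 symbol in the platform annotation, 436 several and 9780 none. For 20758 of those with 1 symbol the RefSeq (GRCr8) symbol of the same gene was used, whether or not it differed.

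Testing covered the 15521 probe sets whose mean log2 value reached the median (9.60, an intensity of 759). Limma (lmFit, then eBayes with trend = TRUE) gave two-sided p-values, adjusted by Benjamini-Hochberg over all of these at 0.05. The fit has 1 residual degree of freedom, from the 1-day pair, and assumes that the 7-day array varies like the 1-day arrays. With 1 array at 7 days that assumption could not be checked. The number of arrays limits the precision, and so does the 1-day pair that sets the spread. Its Spearman correlation was 0.664, against 0.939 for the 7-day array with array b. A lack of limma calls is therefore no evidence that a gene did not change. The members and gene lists were chosen with earlier results of these data known. Of a list the 2 highest and 2 lowest genes relative to array b are named, and others are marked as chosen otherwise. Genes most similar to Cpe are named, and the same was planned for Pcsk1.

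Other settings were a pseudocount of 1 or 64, quantile normalisation, median centring, a loess trend taken off (span 0.5), all probe sets or only those above the 75th percentile of the mean, eBayes without trend or with robust = TRUE, the brightest probe set per gene, and each 1-day array left out. R 4.3.3 with limma 3.58.1 and Python 3.11.15 with matplotlib 3.10.9 were used. The fit was tested on simulated arrays.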

Additional observations from a re-analysis of the deposited data

How the results depend on the processing

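Limma called 0 probe sets under each of the 9 alternatives in which it was run. Without 1 of the 1-day arrays no residual degree of freedom is left, so those settings give values and no test. The count of member probe sets below both 1-day arrays (2) became 1 with median centring, 3 with quantile normalisation (Furin, Cpe and the dim Cpd probe set, without Qpct) and 4 with the loess trend removed, and the count above both (2) became 1 with quantile normalisation, median centring and the loess trend removed. With 1 array left out, 5 read lower and 5 higher than the 1-day array that remained, in both cases.

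Several differences from the mean of the 1-day arrays turned round. With median centring Furin stood at 0.37 and Cpe at 0.38, while the main values were -0.15 and -0.14. Leaving out 1-day array a or b gave -0.43 and 0.62 for Pcsk2, 0.05 and -0.32 for Cpe, -0.05 and 1.28 for the bright Cpd probe set and 0.01 and -2.04 for the dim one. It gave -0.19 and 2.10 for the bright Pam probe set and 1.09 and -2.24 for a dim one. The cause was not tested. Furin, Pcsk1n, Qpct and the third Pam probe set read above or below both 1-day arrays, so leaving out either array could not change their direction. The median over the members relative to array b was -0.03 to -0.02 with other pseudocounts, -0.21 with quantile normalisation and with median centring, -0.10 with the loess trend removed and -0.13 with 1 probe set per gene. No paired analysis was possible because the series holds 1 array at 7 days and the labels link no animals across the days.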
